A study of Rattus norvegicus with 6 samples.

Results

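The genes described here are 56 proliferation and cell cycle genes, chosen by name, measured in the renal cortex of rats given the anti-inflammatory drug phenylbutazone or its vehicle. They were found on the arrays through the RefSeq symbols of the probes' accessions: 50 of the 56 had a probe named in this way, with 106 probes in all, and 48 passed the filter on dim probes and were tested among 29938 genes. Mcm5, Melk, Bub1b, Cenpe, Anln and Top2a had no probe that could be named, and Aurkb and Hmmr were well above background on only 2 of the 6 arrays and were not tested. The animals were male Sprague-Dawley (Crl:CD(SD)) rats, bought at 5 weeks of age. The control group received corn oil and the treated group phenylbutazone at 200 mg/kg/day, in each case for 4 weeks, with 3 animals per group and 1 single-colour Agilent array for each rat. The series' design text calls these 3 samples biological replicates. The arrays are called vehicle 1 to 3 and phenylbutazone 1 to 3, where the numbers only name animals.

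A dividing cell passes through an ordered programme. Cyclin D and cyclin E with their kinases release E2F from the retinoblastoma protein, and E2F switches on the genes that license and copy DNA: the MCM helicase and its loader Cdc6, the sliding clamp Pcna, and the enzymes that supply deoxynucleotides. Later, the complex of B-Myb with MuvB, together with Foxm1, switches on a second wave of genes for entry into mitosis, attachment of chromosomes to the spindle, and cytokinesis. In quiescent cells the DREAM complex holds both waves down. In the adult kidney few tubule cells divide at any time, and division increases after tubule injury. In whole cortex, a smaller share of cycling cells and less RNA per cycling cell cannot be told apart, so the values below are levels of the tissue.

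The 2 waves are known for different promoter elements, so the members' promoters are described here ahead of their values. RefSeq promoters of the rat assembly GRCr8 were given for 44 of the 56 members (46 promoters, since a gene can have more than 1 start) and not used for Ccnd1, E2f1, Cdc6, Mcm4, Rrm2, Foxm1, Ccna2, Pbk, Ube2c, Aurkb, Tpx2 and Racgap1. The 250 bases before each start were searched on both strands for TTTGAA (the cell cycle homology region, or CHR, bound by MuvB complexes), for CCAAT (the NF-Y box) and for E2F sites written as TTTCCCGC, TTTGGCGC, TTTCGCGC or TTTGCCGC. Matches of different motifs can overlap. Among 33469 promoters of that length, 16.2% held TTTGAA, 34.0% CCAAT, 1.73% an E2F site and 5.87% both TTTGAA and CCAAT. Of the 36 promoters of mitosis members, 18 held TTTGAA, 27 CCAAT, 17 (47.2%) both, and 2 (5.56%) an E2F site. Of the 9 promoters of replication members, 1 (11.1%) held TTTGAA, 6 (66.7%) CCAAT, 5 (55.6%) an E2F site, and 0 both TTTGAA and CCAAT. The members were chosen for their functions in the cycle, and a match is a description of letters rather than a bound site.

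The stretches below show the 2 kinds of promoter side by side, and were picked after their matches were known. Each is the 120 bases before the RefSeq start, 5′ to 3′ on the gene's strand, with every match in capitals on either strand, so that ATTGG is CCAAT read from the other strand. The mitosis members are Cdk1 (chr20:19265173-19265292, plus strand), Ccnb2 (chr8:79981659-79981778, minus strand), Cdc20 (chr5:137255800-137255919, minus strand) and Mki67 (chr1:199952594-199952713, minus strand).
Cdk1: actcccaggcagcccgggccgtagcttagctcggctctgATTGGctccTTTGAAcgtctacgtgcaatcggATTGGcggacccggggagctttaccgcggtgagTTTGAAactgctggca
Ccnb2: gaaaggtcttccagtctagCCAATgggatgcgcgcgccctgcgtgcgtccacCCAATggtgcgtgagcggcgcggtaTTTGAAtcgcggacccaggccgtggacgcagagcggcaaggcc
Cdc20: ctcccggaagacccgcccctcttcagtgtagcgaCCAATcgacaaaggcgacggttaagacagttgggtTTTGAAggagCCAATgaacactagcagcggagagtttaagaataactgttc
Mki67: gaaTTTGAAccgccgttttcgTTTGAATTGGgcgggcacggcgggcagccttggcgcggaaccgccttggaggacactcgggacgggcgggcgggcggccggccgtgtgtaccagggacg
In Mki67 the second TTTGAA shares bases with an ATTGG. The replication members are Mcm2 (chr4:122918095-122918214, minus strand), Mcm7 (chr12:22163179-22163298, minus strand) and Tyms (chr9:120776084-120776203, minus strand).
Mcm2: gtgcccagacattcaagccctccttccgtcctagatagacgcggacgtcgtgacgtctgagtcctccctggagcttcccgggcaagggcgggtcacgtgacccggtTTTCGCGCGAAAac
Mcm7: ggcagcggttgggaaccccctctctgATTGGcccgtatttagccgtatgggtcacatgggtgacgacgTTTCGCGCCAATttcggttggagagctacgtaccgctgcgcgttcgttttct
Tyms: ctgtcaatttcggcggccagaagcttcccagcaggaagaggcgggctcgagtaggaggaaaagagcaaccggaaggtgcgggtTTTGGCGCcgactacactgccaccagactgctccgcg
The capitals of Mcm2 are 2 E2F matches on opposite strands that overlap, and in Mcm7 an E2F match shares bases with a CCAAT. Beyond the printed stretch, Mcm2 also holds TTTGAA in its searched window and Cdk1 an E2F site.

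Every value below is a level on the log2 scale, the processed spot intensity over the array's 75th percentile, so that 0 is the intensity of that percentile and a difference of 1 is a doubling. A level compares arrays for 1 probe and not 1 gene with another. Between 65.2% and 68.4% of the non-control probes of each array were well above background and no spot was saturated. The slide and scan split the arrays unevenly: vehicle 1 and 2 lay on slide 1, and vehicle 3 with all 3 treated arrays on slide 2. Vehicle 3 also differed from the other arrays in how bright and dim probes of the same gene behaved. Over 7977 genes with several probes, the brightest probe's deviation from its own mean over the 6 arrays minus the dimmest probe's had a median of -0.18 on vehicle 3, against 0.029 to 0.055 on the other 5 arrays, and it was below 0 there for 5889 genes (73.8%). For the 26 members with several tested probes the median on vehicle 3 was -0.27, and it was below 0 for 24 of them. Values on vehicle 3 therefore depend on the probe. Of the counts over all members, those of the tests are also given without vehicle 3, and the other counts are not. Of the marker lists of kidney cells, 14 of 14 proximal tubule genes, 8 of 8 podocyte genes and 11 of 12 genes of the thick limb, distal tubule and collecting duct passed the filter, as did 66.6% of all probes. These counts do not tell cortex from medulla.

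No member passed the test between phenylbutazone and vehicle. With limma and Benjamini-Hochberg adjustment over all genes tested, 0 of 48 members had an adjusted p under 0.05 (lowest 0.369), as did 0 of all 29938 genes (0%, lowest 0.0648). An unadjusted limma p under 0.05, reached by 12.2% of all genes, was found for 5 of 48 members. Mcm7 was higher in the treated group, and Tyms, Cdc20, Tpx2 and Kif2c were lower. Kif2c was well above background on 3 vehicle arrays and 1 treated array, so it passed the filter through the group where it is higher. The 48 differences had a median of -0.13, against 0.015 over all genes, and 34 of 48 were lower with phenylbutazone, against 47.2% of all genes. The 2 groups did not overlap for 7 members (3 higher, 4 lower, with Kif2c among the lower) of 48, where 21.5% of all genes did not overlap. At an unadjusted limma p under 0.05 the share of members was close to that of all genes, and after adjustment both were 0.

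The spread among the vehicle arrays was wide for these genes. Vehicle 2 was the highest of the 6 arrays for 35 of 48 members, against 16.2% of all genes, and vehicle 3 was the lowest for 25, against 34.3% of all genes. For 18 of 48 members vehicle 2 was highest and vehicle 3 lowest, against 1908 of all 29938 genes. The vehicle range was wider than the treated range for 40 of 48 members (67.8% of all genes), and for 22 members all 3 treated values lay inside the vehicle range (27.4% of all genes). The median range over the 6 arrays was 0.99 for members and 0.57 for all genes.

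**Figure D1:**
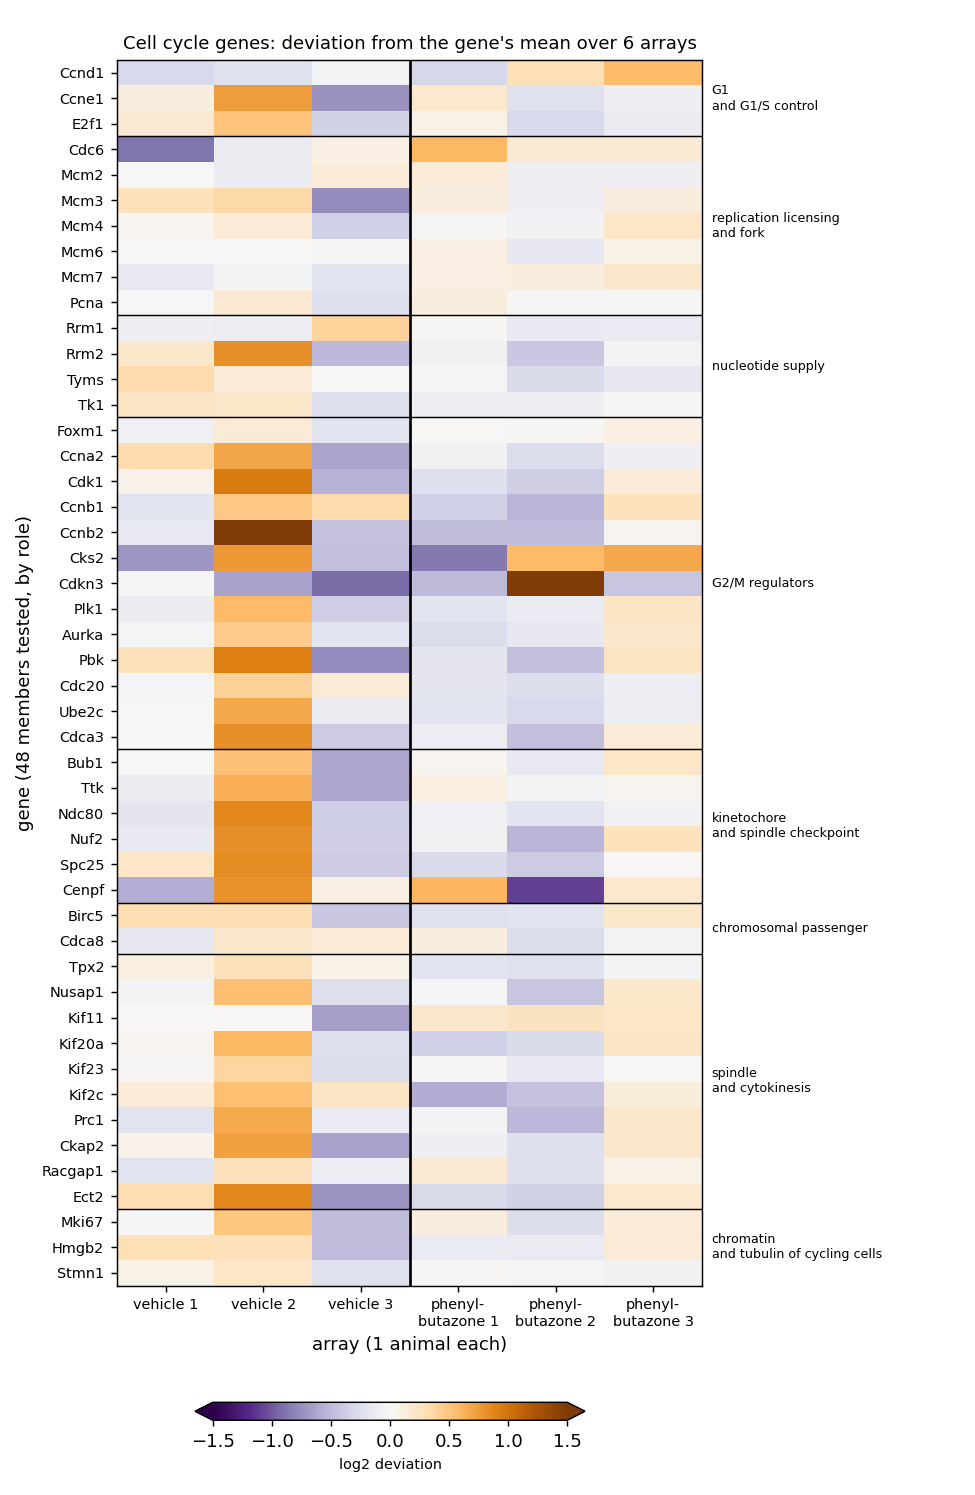
Deviation of each of the 48 tested members (rows, by role) from its own mean over the 6 arrays (columns, 1 animal each), in log2 units from purple (lower) to orange (higher). The vehicle 2 column is orange for most mitosis genes and the vehicle 3 column mostly purple, while the treated columns are paler, apart from Cdkn3 on phenylbutazone 2.

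Of the genes that control entry into the cycle, all 3 were tested and none passed. Ccnd1 encodes cyclin D1, the cyclin that couples growth signals to the G1 kinases. Its level was 2.33, 2.41 and 2.59 on vehicle 1 to 3 and 2.32, 2.92 and 3.19 on phenylbutazone 1 to 3. Phenylbutazone 2 and 3 lay above all vehicle arrays and phenylbutazone 1 just below them, a difference of 0.37 ± 0.23 (standard error, n = 3 per group; limma adjusted p = 0.558). The difference was 0.18 without phenylbutazone 3, 0.61 without phenylbutazone 1 and 0.22 with slide as a fixed block. Ccne1 encodes cyclin E1, which drives the start of DNA synthesis. It read -3.55, -2.92 and -4.39 on the vehicle arrays and -3.48, -3.88 and -3.73 on the treated arrays, so that the treated values lay inside a vehicle range of 2.76-fold. E2f1, the E2F factor best known for switching on replication genes, read -1.48, -1.14 and -2.0 on vehicle and -1.57, -1.95 and -1.76 with treatment. For both Ccne1 and E2f1 vehicle 2 was the highest and vehicle 3 the lowest array, and the differences were -0.08 ± 0.36 and -0.22 ± 0.23 (limma adjusted p = 0.947 and 0.729). E2f1 was -0.022 without vehicle 2 and -0.45 without vehicle 3, and Ccne1 0.27 and -0.46. These E2f1 values are those of its brightest probe. Its other tested probes gave differences of 0.021 and 0.0043, and on the dimmest of them vehicle 1 was the lowest array, at -5.26, against -4.76 on vehicle 3.

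Of the replication licensing and fork genes 5 of 7 were higher in the treated group, with a median difference of 0.091, and none passed. The 7 were Cdc6, Mcm2, Mcm3, Mcm4, Mcm6, Mcm7 and Pcna. Mcm7, a subunit of the replicative helicase, gave the smallest p among them. It read 1.32, 1.43 and 1.26 on vehicle and 1.56, 1.58 and 1.66 with phenylbutazone. Each treated array was above each vehicle array, by 0.27 ± 0.096 on average, or 1.20-fold (limma adjusted p = 0.369). A second, dimmer Mcm7 probe differed by only 0.046, and on that probe the groups overlapped. Cdc6 loads the helicase at origins, and its levels of -5.86, -5.09 and -4.88 on vehicle and -4.38, -4.81 and -4.82 with treatment lay close to the lowest signal well above background, which was between -5.90 and -5.32. The treated arrays were all above the vehicle arrays, by 0.60 ± 0.28 (limma adjusted p = 0.450), with vehicle 1 the lowest. Cdc6 was well above background on 2 vehicle and 3 treated arrays, and on vehicle 1 its level was under that limit. The difference was 0.31 without vehicle 1, 0.21 with normexp background correction and 0.21 with slide as a fixed block. Pcna, the clamp that holds the polymerase on DNA and a common marker of S phase, read 1.66, 1.83 and 1.43 on vehicle and 1.78, 1.64 and 1.64 with treatment. The treated values lay inside the vehicle range and differed by 0.048 ± 0.13 (limma adjusted p = 0.905), while the other Pcna probe gave -0.10. Mcm2 and Mcm6 differed by -0.012 and -0.003, with ranges over the 6 arrays of 1.20-fold and 1.19-fold.

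Mcm3, another helicase subunit, was singled out after its values were seen, because its brightest and dimmest probes went opposite ways on vehicle 3. Its brightest probe read -0.41, -0.34 and -1.46 on vehicle and -0.58, -0.77 and -0.58 with treatment, with vehicle 3 the lowest. Its dimmest probe read -4.48, -4.34 and -3.14 on vehicle and -4.73, -4.79 and -4.56 with treatment, with vehicle 3 the highest. The difference between the groups was 0.091 by the first and -0.71 by the second. The other 2 probes gave group differences of -0.026 and 0.019, so that in this measure the dimmest probe stood apart from the other 3. On vehicle 3 itself the brightest probe stood apart as well. The other 2 probes moved less there, with -1.97, -2.16 and -2.44 on vehicle 1 to 3 for 1 probe and -2.69, -2.34 and -2.69 for the other.

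All 4 nucleotide supply genes, Rrm1, Rrm2, Tyms and Tk1, were lower in the treated group, with a median of -0.24, and none passed. The direction was not the same against each vehicle array: the median was -0.33 against vehicle 1, -0.28 against vehicle 2 and 0.0085 against vehicle 3, where 2 were lower and 2 higher. Tyms makes thymidylate, and its levels were -0.48, -0.68 and -0.80 on vehicle against -0.84, -1.09 and -0.97 with phenylbutazone. The groups did not overlap, although vehicle 3 and phenylbutazone 1 nearly met, and the difference was -0.32 ± 0.13 (limma adjusted p = 0.402), or -0.17 with slide as a fixed block. Rrm2 is the subunit of ribonucleotide reductase that is made in S phase. It read 1.01, 1.63 and 0.30 on vehicle and 0.76, 0.39 and 0.77 with treatment. On this probe, the brightest, all treated values lay within the vehicle range, whose ends were vehicle 2 and vehicle 3, 2.5-fold apart. The difference was -0.34 ± 0.33 (limma adjusted p = 0.707), or -0.019 without vehicle 2 and -0.68 without vehicle 3. The other tested Rrm2 probes, all dimmer, gave -0.02, -0.39 and -0.38. On the probe at -0.39 every treated array was below every vehicle array, and on the others the groups overlapped. On the probe at -0.02 vehicle 2 and vehicle 3 were nearly level, at -4.21 and -4.24. Rrm1, the larger and steadier subunit, went another way among the vehicle arrays, with vehicle 3 the highest at -0.54 and the other 5 arrays between -1.07 and -0.92.

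Regulators of the G2/M transition were lower in the treated group for 10 of 13 members, with a median of -0.27, and none passed. Tested were Foxm1, Ccna2, Cdk1, Ccnb1, Ccnb2, Cks2, Cdkn3, Plk1, Aurka, Pbk, Cdc20, Ube2c and Cdca3. Ccna2, named after its values were seen, depended on the probe. Its brightest probe gave -0.26 with overlapping groups and vehicle 3 the lowest array at -2.35. The other 2 tested probes gave -0.68 and -0.56, and on both every treated array was below every vehicle array. Cdk1, the kinase that starts mitosis, read 0.45, 1.34 and -0.15 on vehicle and 0.16, 0.023 and 0.53 with treatment. Vehicle 2 stood 1.86-fold above vehicle 1 and 2.81-fold above vehicle 3, and all treated arrays were between vehicle 2 and vehicle 3. The difference between the groups was -0.31 ± 0.38 (limma adjusted p = 0.770), smaller than its own error, with 0.089 without vehicle 2 and -0.66 without vehicle 3. Cdc20 activates the anaphase-promoting complex, and it read -0.52, -0.095 and -0.35 on vehicle against -0.67, -0.75 and -0.58 with treatment. It was lower on every treated array than on every vehicle array, by 0.34 on the log2 scale (-0.34 ± 0.14, 1.27-fold; limma adjusted p = 0.398). Its vehicle levels do not follow the common order, since vehicle 3 was above vehicle 1.

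Ccnb2, which encodes cyclin B2, a partner of Cdk1, was named after its values were seen, as the member with the widest gap between vehicle 2 and vehicle 3. It read -3.06, -1.39 and -3.37 on vehicle and -3.39, -3.40 and -2.87 with treatment. Vehicle 2 alone was high, 3.18-fold above vehicle 1 and 3.95-fold above vehicle 3, and the other 5 arrays lay between -3.40 and -2.87. Cdkn3, a phosphatase that acts on cyclin-dependent kinases, had the largest difference of all members, and it came from 1 array. It read -3.70, -4.33 and -4.61 on vehicle and -4.18, -1.18 and -4.11 with treatment, 1.06 ± 0.83 (limma adjusted p = 0.632). Without phenylbutazone 2 the difference was 0.07, and with normexp background correction it was 0.53.

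The kinetochore and spindle checkpoint genes had 1 array high throughout: vehicle 2 was the highest for 6 of 6, Bub1, Ttk, Ndc80, Nuf2, Spc25 and Cenpf. Their mean deviation was 0.75 on vehicle 2 and between -0.40 and 0.11 on the other 5 arrays. The median difference between the groups was -0.20, with 2 higher and 4 lower, and none passed. Spc25 belongs to the NDC80 complex, which grips the microtubule, and it read -1.78, -1.15 and -2.38 on vehicle and -2.28, -2.38 and -1.98 with treatment. Vehicle 2 was 2.34-fold above vehicle 3, which was level with phenylbutazone 2, and the groups differed by -0.44 ± 0.31 (limma adjusted p = 0.597), by -0.13 without vehicle 2 and by -0.74 without vehicle 3. Cenpf, a large kinetochore protein of G2 and mitosis, read -5.06, -3.68 and -4.39 on vehicle and -3.88, -5.58 and -4.30 with treatment. The probe was well above background on 3 vehicle and 2 treated arrays. These dim levels scattered widely inside both groups (difference -0.21 ± 0.53, limma adjusted p = 0.893), and its other 2 tested probes gave -0.98 and 0.24.

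Of the chromosomal passenger genes, which correct faulty attachments, Birc5 and Cdca8 were tested. Birc5 (survivin) read -0.96, -0.96 and -1.69 on vehicle and -1.49, -1.46 and -1.07 with treatment. Vehicle 1 and 2 were level, vehicle 3 was the lowest array and the treated arrays lay between them, for a difference of -0.13 ± 0.24 (limma adjusted p = 0.845), or -0.38 without vehicle 3. Cdca8 (borealin) read -4.53, -4.18 and -4.23 on vehicle and -4.26, -4.64 and -4.42 with treatment, -0.13 ± 0.15 (limma adjusted p = 0.764). It varied over only 1.38-fold in all, and its groups overlapped.

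The spindle and cytokinesis genes were lower for 8 of 10 members, with a median of -0.21, and vehicle 2 was highest for 9 of the 10. They were Tpx2, Nusap1, Kif11, Kif20a, Kif23, Kif2c, Prc1, Ckap2, Racgap1 and Ect2, and none passed. Kif2c depolymerises microtubules at the centromere, and its levels of -4.92, -4.51 and -4.82 on vehicle against -5.64, -5.50 and -4.93 with treatment did not overlap, though phenylbutazone 3 nearly met vehicle 1. Kif2c was well above background on 3 vehicle arrays and on 1 treated array, so that it passed the filter through the group where it is higher and its treated levels are near or under the limit of detection. Its difference of -0.61 ± 0.22 (limma adjusted p = 0.369) rests on those levels, and with normexp background correction it was -0.13 (limma adjusted p = 0.592). Ect2 switches on RhoA at the division plane, and it read -1.57, -1.02 and -2.60 on vehicle and -2.17, -2.23 and -1.70 with treatment. The treated arrays lay inside a vehicle range of 2.98-fold, and the difference was -0.30 ± 0.40 (limma adjusted p = 0.788), or 0.051 without vehicle 2 and -0.74 without vehicle 3.

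Tpx2 and Kif11 were named after their values were seen, as the other members of this list whose groups lay apart. Tpx2, which targets Aurka to the spindle, read -3.17, -2.99 and -3.20 on vehicle and -3.46, -3.49 and -3.31 with treatment, -0.30 ± 0.11 (limma adjusted p = 0.376). Kif11, the motor that pushes the spindle poles apart, was higher with treatment, unlike most of its list. It read 2.47, 2.47 and 1.80 on vehicle and 2.66, 2.72 and 2.68 with treatment, with vehicle 3 well below the rest, and differed by 0.44 ± 0.20 (limma adjusted p = 0.444). Without vehicle 3 the difference was 0.22 ± 0.061 (limma adjusted p = 0.153). A dimmer Kif11 probe also read higher with treatment, by 0.25, with vehicle 3 the highest vehicle array at -0.02.

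Of the chromatin and tubulin genes, Mki67, Hmgb2 and Stmn1 were tested, and the treated values lay inside the vehicle range for all 3. Mki67 encodes the antigen Ki-67, the usual marker of cycling cells. It read -0.19, 0.33 and -0.66 on vehicle and -0.054, -0.42 and -0.031 with treatment. Vehicle 2 and vehicle 3 were the ends of the range, 1.99-fold apart, and the group means were level (0.0071 ± 0.26, limma adjusted p = 0.994). The 5 Mki67 probes gave differences from -0.18 to 0.11. The vehicle order depended on the probe: the dimmest read -3.81, -3.41 and -3.07 on vehicle 1 to 3, with vehicle 3 the highest of them. Stmn1, a tubulin-binding protein high in dividing cells, read 3.56, 3.70 and 3.27 on vehicle and 3.5, 3.45 and 3.43 with treatment (-0.051 ± 0.13, limma adjusted p = 0.900). It kept the vehicle order of the brightest Mki67 probe over a range of 1.35-fold.

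**Figure D2:**
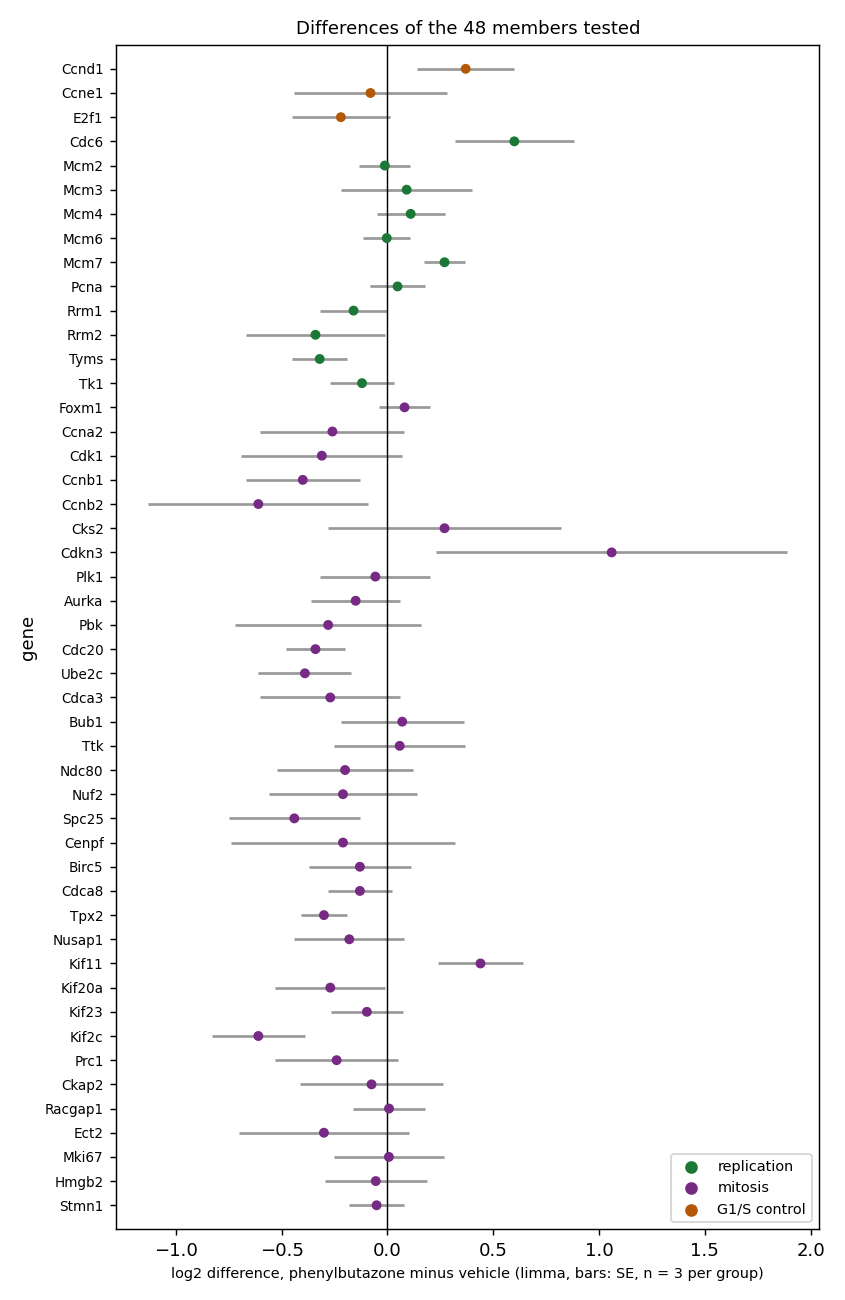
Log2 difference (phenylbutazone minus vehicle) of the 48 tested members with its standard error from limma, 3 arrays per group, coloured by replication, mitosis or G1/S control. Most mitosis genes lie left of 0, many with errors that cross it, replication genes lie on both sides, and Cdkn3 at 1.06 has the widest error.

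The members were then summarised as 11 replication genes (licensing, fork and nucleotide supply) and 34 mitosis genes (all lists from G2/M on), by the mean over genes of each gene's deviation from its own mean. For replication the 6 arrays stayed close together. The mean deviation was -0.0052, 0.13 and -0.15 on vehicle 1 to 3 and 0.092, -0.094 and 0.026 on phenylbutazone 1 to 3, or -0.0079 ± 0.14 and 0.0079 ± 0.094 by group (mean ± SD, n = 3). Vehicle 2 was the highest array for 3 of the 11 and vehicle 3 the lowest for 6. The median difference was -0.003, with 5 genes higher and 6 lower.

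For mitosis the mean deviation was -0.021, 0.55 and -0.32 on vehicle 1 to 3 and -0.13, -0.18 and 0.11 on phenylbutazone 1 to 3. The highest and the lowest array were both vehicle arrays, and the group values of 0.067 ± 0.44 and -0.067 ± 0.16 differed by less than the SD of either group. Vehicle 2 was the highest array for 30 of 34 mitosis genes, above vehicle 3 for 34 (57.1% of all genes) and above vehicle 1 for 31 (50.9% of all genes). The median gap from vehicle 2 to vehicle 1 was 0.55 and to vehicle 3 0.80, where all genes gave 0.0032 and 0.078. The median difference between the groups was -0.19, with 8 genes higher and 26 lower.

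Among the treated arrays the mitosis genes also kept an order, of smaller size. Phenylbutazone 3 was the highest of the 3 for 25 of 34 (34.8% of all genes), and its median gap to phenylbutazone 2 was 0.36. The median treated range was 0.42, against 0.89 among the vehicle arrays.

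**Figure D3:**
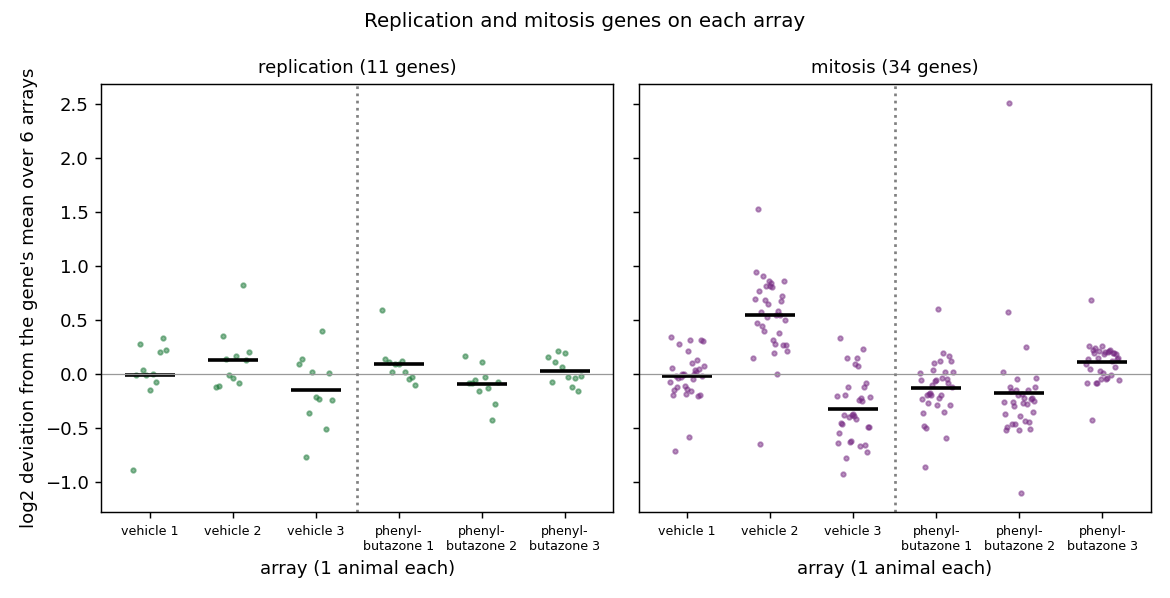
Log2 deviation from the gene's own mean over 6 arrays for the 11 replication genes (left) and the 34 mitosis genes (right) on each array, 1 animal each, with 1 point per gene and the mean as a bar. The mitosis bar is at 0.55 on vehicle 2 and -0.32 on vehicle 3 with the other 4 arrays between them, while the replication bars stay between -0.15 and 0.13.

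Set against replication on the same array, mitosis was higher on vehicle 2 and phenylbutazone 3 and lower on the other 4. Mitosis minus replication was -0.016, 0.42 and -0.17 on vehicle 1 to 3 and -0.22, -0.085 and 0.085 on phenylbutazone 1 to 3. The group means were 0.075 ± 0.30 and -0.075 ± 0.15 (SD, n = 3), and their difference of -0.15 was smaller than the vehicle SD. All treated arrays lay below vehicle 2, and phenylbutazone 1 lay below vehicle 3, the lowest vehicle array.

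The direction of the comparison depended on the vehicle array used. Against vehicle 1 alone the mean of the 3 treated arrays gave a median of -0.052 over the mitosis genes, with 20 of 34 lower (50.2% of all genes). Against vehicle 2 the median was -0.64 and 32 of 34 were lower (50.7% of all genes). Against vehicle 3 it was 0.25 and 26 of 34 were higher (55.4% of all genes). Replication genes gave 0.0027, -0.086 and 0.21 against the same 3 arrays, a smaller spread.

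**Figure D4:**
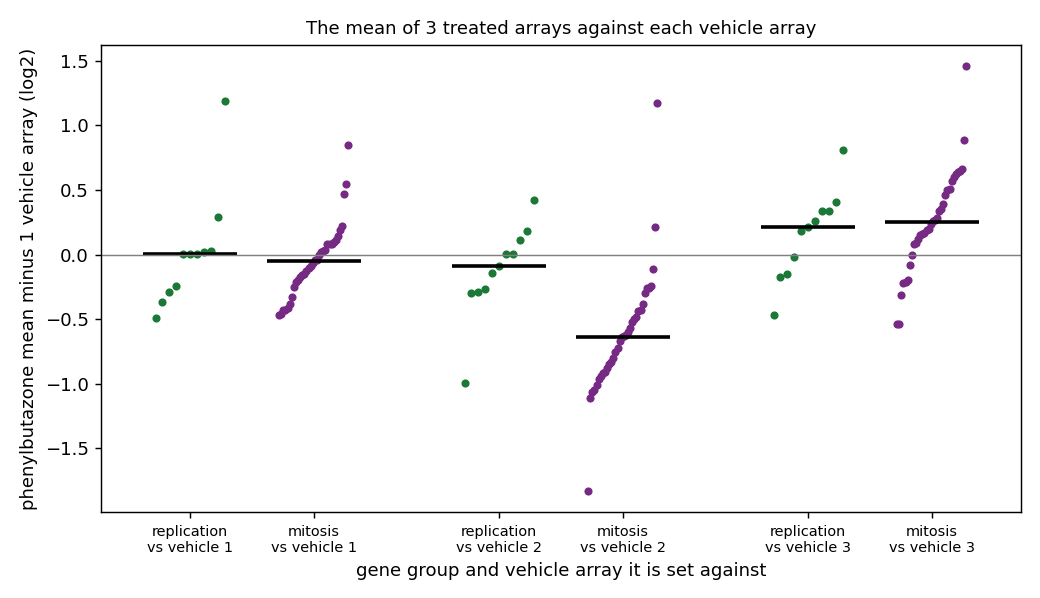
Mean of the 3 phenylbutazone arrays minus 1 vehicle array (log2), with 1 point per gene and the median as a bar, for 11 replication and 34 mitosis genes against vehicle 1, 2 and 3. The mitosis median moves from -0.052 to -0.64 and to 0.25, and the replication median from 0.0027 to -0.086 and to 0.21.

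The same dependence showed when a vehicle array was left out of the fit. Without vehicle 2 the mitosis median was 0.067, with 24 of 34 higher. Without vehicle 3 it was -0.34, with 3 of 34 higher, and 13 of 48 members (3 higher, 10 lower) had an unadjusted limma p under 0.05, against 22.0% of all genes. Without vehicle 2 those were 2 of 48, against 8.85% of all genes, and no member passed after adjustment in either fit. Without vehicle 3 the groups lie on different slides, so treatment and slide cannot be told apart there, and 814 of the 29938 genes then passed. With slide as a fixed block, which compares the treated arrays with vehicle 3 alone, the mitosis median was 0.25 and the replication median 0.21. The lowest adjusted p of any member in any setting came from that fit, 0.0594 for Kif11.

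Genes of the same pathways that are not among the members were read from lists of their names, and 0 of 124 tested passed after adjustment. Of the kinetochore and mitotic kinase genes, 14 of 23 were tested, with 4 higher and 10 lower and a median of -0.12. Vehicle 2 was the highest array for 7 of the 14. Nek2, a centrosome kinase, read -2.68, -4.65 and -3.95 on vehicle and -5.30, -5.38 and -4.85 with treatment (-1.42 ± 0.49, limma adjusted p = 0.359). Its groups did not overlap, and here vehicle 1 was high rather than vehicle 2. The Nek2 levels on phenylbutazone 1 and 2 were close to the lowest signal well above background, -5.45 and -5.58 on those arrays. Cenpm, a centromere protein, differed by -0.27 ± 0.14 with overlapping groups (limma adjusted p = 0.486). Of the spindle motor and condensin genes 16 of 24 were tested, with 3 higher and 13 lower and a median of -0.24, and vehicle 2 was the highest array for 8. The list's mean deviation was 0.16, 0.39 and -0.24 on vehicle and -0.14, -0.32 and 0.15 with treatment, so that vehicle 2 was again the highest array. Smc4, a condensin subunit, was among the 3 higher, with each treated array above each vehicle array (0.28 ± 0.093, limma adjusted p = 0.353). Fam83d, which recruits a kinase to the spindle, differed by -1.12 ± 0.39 (limma adjusted p = 0.360). It read -5.17 and -5.51 on phenylbutazone 1 and 2, also close to the lowest signal well above background.

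Origin recognition and firing genes were higher for 11 of 16 tested of 18 (median 0.12), fork and chromatin assembly genes for 14 of 21 tested of 26 (median 0.12), and further nucleotide supply genes for 5 of 9 tested of 11 (median 0.13). Ctps1, which makes CTP, read 1.21, 1.21 and 1.06 on vehicle and 1.60, 1.73 and 1.67 with treatment. The groups lay well apart, by 0.51 ± 0.098, the smallest p of these pathway genes (limma adjusted p = 0.221). Gins3, part of the active helicase, differed by 0.41 ± 0.11 (limma adjusted p = 0.297), and Orc2, of the origin recognition complex, by 0.26 ± 0.092 (adjusted p = 0.371), in both cases without overlap. Rpa2, which coats single-stranded DNA, differed by 0.24 ± 0.099, and Asf1b, a histone chaperone, by -0.29 ± 0.11 (limma adjusted p = 0.412 and 0.386). Dctpp1, which clears abnormal nucleotides, differed by 0.28 ± 0.19 with overlapping groups (limma adjusted p = 0.575).

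Among the regulators above both waves, 6 of 7 CDK inhibitors, 14 of 16 other cyclins, kinases and activators, and 14 of 20 genes of the RB, E2F, DREAM and MYB-MuvB group were tested, with medians of -0.028, 0.069 and 0.049. Cdkn1b encodes p27, an inhibitor of cyclin E and cyclin A kinases. It read 1.15, 1.17 and 1.25 on vehicle and 1.42, 1.5 and 1.53 with treatment. Each treated array was above each vehicle array, by 0.29 ± 0.091 (limma adjusted p = 0.330). Ccnf, an F-box protein of G2, read -1.53, -1.38 and -1.94 on vehicle and -2.08, -2.24 and -2.22 with treatment, again without overlap (-0.57 ± 0.16, limma adjusted p = 0.307). Ccna1, the cyclin A of germ cells, differed by 1.08 ± 0.40 and Cdkn2a, a tumour suppressor locus, by -0.50 ± 0.25 (limma adjusted p = 0.379 and 0.469). E2f7, a repressor of E2F targets, differed by -0.33 ± 0.13 and Rbl2, the p130 subunit of DREAM, by 0.27 ± 0.14 (limma adjusted p = 0.382 and 0.476). Of 17 p53 target genes, 15 were tested, with 10 higher and a median of 0.098. Tp53inp1 and Bbc3, which promote cell death downstream of p53, differed by 0.54 ± 0.15 and 0.34 ± 0.12 without overlap (limma adjusted p = 0.303 and 0.376), while Cdkn1a (p21), an inhibitor and p53 target on both lists, read 4.98, 4.82 and 4.74 on vehicle and 4.92, 4.83 and 4.64 with treatment.

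Markers of other cells were set beside the mitosis genes on each array. On vehicle 2 the mitosis deviation was 0.55. The fibroblast and smooth muscle list (8 of 10 tested, as Lum and Postn were not above background) had a mean deviation of 0.095 there and 0.071 on vehicle 1. Vehicle 2 was above vehicle 3 for 8 of 8 of these genes, but above vehicle 1 for only 4 of 8. Their median gap from vehicle 2 to vehicle 1 was -0.11, and their summed signal was 36.6 on vehicle 1 and 32.3 on vehicle 2. The thick limb, distal tubule and collecting duct list (11 of 12, as Pvalb was not above background) was at 0.039 on vehicle 2. On the same array the leukocyte list (16 of 18 tested, as Cd79a and Ms4a1 had no named probe) had a mean deviation of -0.16 and the podocyte list (8 of 8) -0.10. The erythroid list (11 of 14) was at -0.093, the endothelial list (10 of 10) at -0.086 and the proximal tubule list (14 of 14) at -0.067. The erythroid list's median deviation on vehicle 2 was 0.025, and its summed signal there was 680, above 501 on vehicle 1 and 497 on vehicle 3. Klf1 of this list read -1.35 on vehicle 1 and -4.43 on vehicle 2, which lowered the mean on vehicle 2. On phenylbutazone 3, the highest treated array for mitosis, the leukocyte list was at 0.21, the erythroid list at 0.37 and the injured tubule list, described below, at 0.55. The endothelial list was at -0.15 there, and the proximal tubule, podocyte, distal and fibroblast lists were between 0.026 and 0.059. Summed signal over the 75th percentile was 90.9 to 118 on vehicle and 91.4 to 125 with treatment for leukocyte genes, 497 to 680 and 582 to 926 for erythroid genes, and 2652 to 2928 and 2584 to 3025 for proximal tubule genes. On vehicle 3 the thick limb, distal tubule and collecting duct list stood at -0.31, the fibroblast and smooth muscle list at -0.10 and the mitosis genes at -0.32. Summed signal was 438 to 605 on vehicle and 635 to 710 with treatment for the thick limb, distal tubule and collecting duct genes, and 27.3 to 36.6 and 27.3 to 33.6 for fibroblast and smooth muscle genes. The part of these cells in the mitosis values was not tested.

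The injured tubule list separated the 2 groups, which the cell cycle genes did not. The list was chosen with earlier results of these data known, so its separation is a description and not a test. With 16 of 18 tested (Sox9 had no named probe, and Krt20 was not above background), its mean deviation was -0.21, -0.30 and -0.37 on vehicle and 0.077, 0.25 and 0.55 with treatment. Of the 16, 13 were higher with phenylbutazone, against 15806 of all 29938 genes, with a median difference of 0.51. For 9 the groups did not overlap (21.5% of all genes), all 9 in that direction. The 3 lower genes were Havcr1 (-0.19), Vcam1 (-0.19) and Krt8 (-0.077), each with overlapping groups. None of the 16 passed after adjustment (lowest limma adjusted p = 0.187). Its summed signal was 95.6 to 100 on vehicle and 161 to 205 with treatment. Every treated array was above every vehicle array on this list, while the mitosis genes of the same arrays overlapped.

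**Figure D5:**
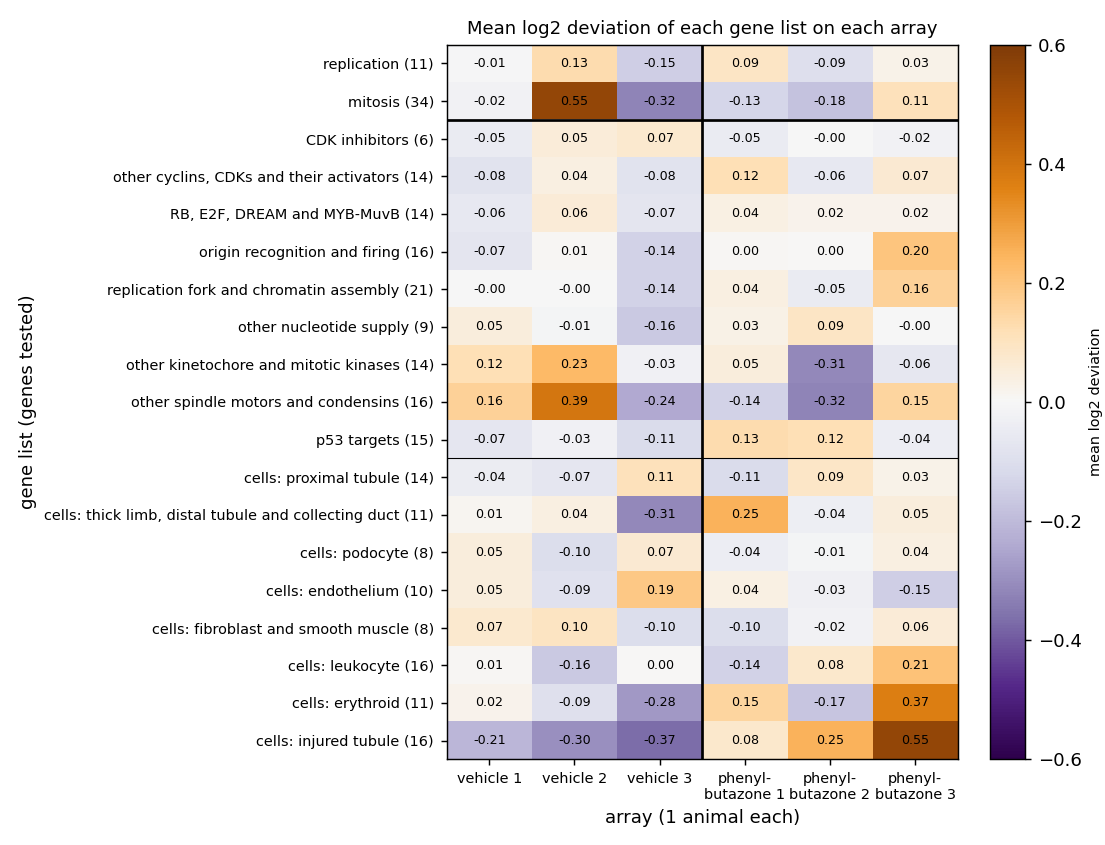
Mean log2 deviation (colour and printed value) of each gene list (rows, genes tested in brackets) on each of the 6 arrays, with the members at the top, other cell cycle and p53 lists below, and cell markers at the bottom. The mitosis row and the row of spindle motors and condensins are highest on vehicle 2 (0.55 and 0.39), and the injured tubule row is below 0 on all vehicle arrays and above 0 on all treated arrays.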

How the data were processed

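RNA of 6 rat renal cortices was labelled with Cy3 and hybridised to 1 Agilent array per animal, per the labels' protocols; images were read with Agilent Feature Extraction 10.7, per the submitters' processing notes. Per the file headers, the scanner files hold each spot's processed intensity on a linear scale, corrected for background, with no scaling from array to array. A value table deposited beside them holds a ratio, which set against the scanner values was that intensity divided by the array's 75th percentile; it has 61605 rows and was used as an alternative on the log2 scale. The probe layout names rn4, so no rn4 coordinates are given.

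Log2 intensities had each array's 75th percentile subtracted (891 to 1003 before log2). Of 62976 spots, 1439 controls and 40 probes with an outlier flag were left out, and 41006 probes (66.6%) well above background on at least 3 arrays were kept; 20491 were dim. RefSeq tables of GRCr8 named 28206 of 61537 probes (45.8%). The brightest probe stood for a gene. Where a member had further tested probes, 16 of 44 such probes had the opposite sign. The test was limma's (lmFit, then eBayes; version 3.58.1, R 4.3.3), two-sided, with Benjamini-Hochberg adjustment over 29938 genes and a threshold of 0.05. With 3 arrays per group their number limits the precision: tested on simulated data for this comparison over 29938 genes, 51% of 100 genes changed 2-fold and 88% of 100 genes changed 4-fold were recovered. The changed genes were drawn from all genes tested, with independent noise and no slide effect. The median standard error was 0.26 for the members and 0.15 for all genes, so these shares may be too high for the members.

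The members and lists were chosen with earlier results of these data known. Values on all arrays are given, in each role list, for the member of smallest p and the one of widest range, and for Mki67, Pcna, Cdk1, Ccnd1 and E2f1 (Top2a had no named probe); of each pathway list, the 2 genes of smallest p are named. Alternatives were array median, quantile and normexp (offset 50, on median spot intensity) scaling, the deposited values, the filter, the probe of a gene, an intensity trend, slide as a block or alone, the replicate number, and leaving out each array.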

Additional observations from a re-analysis of the deposited data

How the results depend on the processing

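No member passed under any of the 19 alternatives. Of all genes, 0 passed as reported, 1 with quantile normalization, 2 with normexp, 8 with an intensity trend, 1 with slide as a random block, and 0 to 814 when an array was left out (814 without vehicle 3, 2 without phenylbutazone 2, and 1 each without vehicle 2 or phenylbutazone 3); the causes were not tested, except that without vehicle 3 treatment and slide coincide. With slide as a fixed block and on slide 2 alone, which both set the treated arrays against vehicle 3, the replication median was 0.21, the mitosis median 0.25 and mitosis minus replication 0.098; slide 2 alone takes the spread of vehicle 3 to be that of the treated arrays. With 1 array left out the replication median ran from -0.051 (without phenylbutazone 1) to 0.071 (without phenylbutazone 2), the mitosis median from -0.34 (without vehicle 3) to 0.067 (without vehicle 2), and mitosis minus replication from -0.27 (without vehicle 3) to 0.02 (without vehicle 2). With slide as a random block (consensus correlation 0.572) the mitosis median was 0.1. The dimmest kept probe of a gene, an alternative chosen after seeing the data, gave 0.019 for mitosis minus replication and -0.14 for the replication median. Scaling to the array median moved the median of all genes from 0.015 to 0.063.

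Of the 19 members named by the rule, 315 values kept their direction and 44 reversed. With a fixed slide block and on slide 2 alone, Ccne1 was 0.69, Rrm2 0.34, Spc25 0.17, Birc5 0.35, Ect2 0.57, Stmn1 0.19, Cdk1 0.39 and E2f1 0.24. With a random slide block Ccne1 was 0.41, Rrm2 0.092, Birc5 0.18, Ect2 0.25, Stmn1 0.10, Cdk1 0.14 and E2f1 0.074. With the stricter filter Cenpf was 0.24. With the dimmest kept probe Cenpf was 0.24, Stmn1 0.017, Pcna -0.10 and E2f1 0.0043. With normexp Cdca8 was 0.0014 and Pcna -0.069, and with the mean over probes Mki67 was -0.051 and Pcna -0.028. With 1 array left out, Ccne1 ran from -0.46 (without vehicle 3) to 0.27 (without vehicle 2), Cenpf from -0.57 (without phenylbutazone 1) to 0.28 (without phenylbutazone 2), Pcna from -0.058 (without vehicle 3) to 0.14 (without vehicle 2), and, between the same 2 omissions, Ect2 from -0.74 to 0.051, Stmn1 from -0.17 to 0.045, Mki67 from -0.24 to 0.26, Cdk1 from -0.66 to 0.089, Rrm2 from -0.68 to -0.019, Spc25 from -0.74 to -0.13 and E2f1 from -0.45 to -0.022. Birc5 ran from -0.38 to -0.013, Cdca8 from -0.24 to -0.026, Cdc6 from 0.31 to 0.80 and Ccnd1 from 0.18 to 0.61. None of these differences had passed the test.

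Equal replicate numbers did not pair the arrays: the deviations of same-numbered arrays correlated at -0.03, 0.01 and -0.07 over genes. With the replicate number as a block 0 genes and 0 members passed, 2695 genes in place of 3657 and 1 member in place of 5 had an unadjusted p under 0.05, and the replication median (-0.003), the mitosis median (-0.19) and mitosis minus replication (-0.15) were as without it. Dim members limit what can be read: Cdc6, Cenpf and Kif2c were not well above background on every array.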
